A study of Mus musculus
Mus spretus with 18 samples.

Results

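The mouse major histocompatibility complex genes carry the prefix H2-, and 44 of the 38924 genes in the expression table had a symbol that starts with it. All 44 were matched to RefSeq by symbol (42) or synonym (2) and lie on chromosome 17 in GRCm38. They were followed in cells of F1 hybrid mice, offspring of a C57BL/6J mother and a SPRET/EiJ father, so each cell holds 1 copy of the region from each of 2 mouse species. Cortex, heart, kidney, lung, spleen and liver were taken from 8-week-old F1 animals, the embryonic stem cells (ESC) were 2 separate F1 clones grown with 2 kinase inhibitors and LIF, and an F1 fibroblast line received either the solvent DMSO or 0.1 µM pladienolide B (PladB), an inhibitor of the splicing factor SF3B, for 4 h. Each of the 9 groups had 2 libraries (18 in all), and beyond the F1 genotype that all groups share no allele was altered. Both fibroblast groups come from a single line, so their replicates do not sample animals, and the 2 libraries of an organ come from 2 animals, the same 2 for all organs, so libraries of different organs are not independent. The labels of the liver libraries carry other substrain numbers for the C57BL mother and were taken as the same cross.

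The classical class I molecules (H2-K1 and H2-D1) pair with beta-2 microglobulin and show peptides from inside the cell to CD8 T cells, and nearly every nucleated cell makes some. The Q, T and M families hold class I-like genes, several with other roles that are named below. Class II molecules are pairs of an alpha and a beta chain (H2-Aa with H2-Ab1, H2-Ea with H2-Eb1) that show peptides from taken-up material to CD4 T cells, and are made mainly by B cells, dendritic cells and macrophages. H2-DM loads the peptides onto class II molecules and H2-O modulates H2-DM. The region is among the most variable of the mouse genome, and C57BL/6 mice carry the b haplotype, in which a deletion removes the promoter of the E alpha gene. H2-Ke2 (also Pfdn6, a prefoldin subunit) and H2-Ke6 (also Hsd17b8, an enzyme of steroid and fatty acid metabolism) lie in the region and carry the prefix, but do not present antigen.

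Levels were read as TPM, a scale of transcript abundance corrected for gene length and library size, so levels can be compared between genes. A mean of at least 1 TPM in some group was reached by 34 of the 44 genes, of which 24 were highest in spleen, 6 in ESC, 2 in liver, 1 in lung and 1 in PladB-treated fibroblasts. The other 10 (H2-M1, H2-M9, H2-M10.1, H2-M10.2, H2-M10.3, H2-M10.5, H2-M10.6, H2-M11, H2-Pa and H2-Pb) stayed below 1 TPM in every group, the highest being H2-Pb with 0.933 and 0.970 TPM in spleen. Class I genes of the Q, T and K/D groups are close copies of each other, so reads may have been split between them and their single levels are uncertain. Exon-junction reads in the tables of skipped exons (SE events, an exon either joined in or skipped) ranged from 46558287 to 151755602 per library over all genes, and reads assigned to the C57BL/6J allele made up 48.3 to 53.8% of assigned reads. The tissue labels were matched by their markers: all 4 defining genes of cortex, heart, kidney, lung, liver and ESC, and all 3 B cell genes for spleen, were called higher in the tissue named. Some were also called higher in a further tissue, such as all 4 heart genes and all 3 B cell genes in lung. The same held for all 4 lung genes in spleen and 3 of 4 liver genes in kidney.

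**Figure D1:**
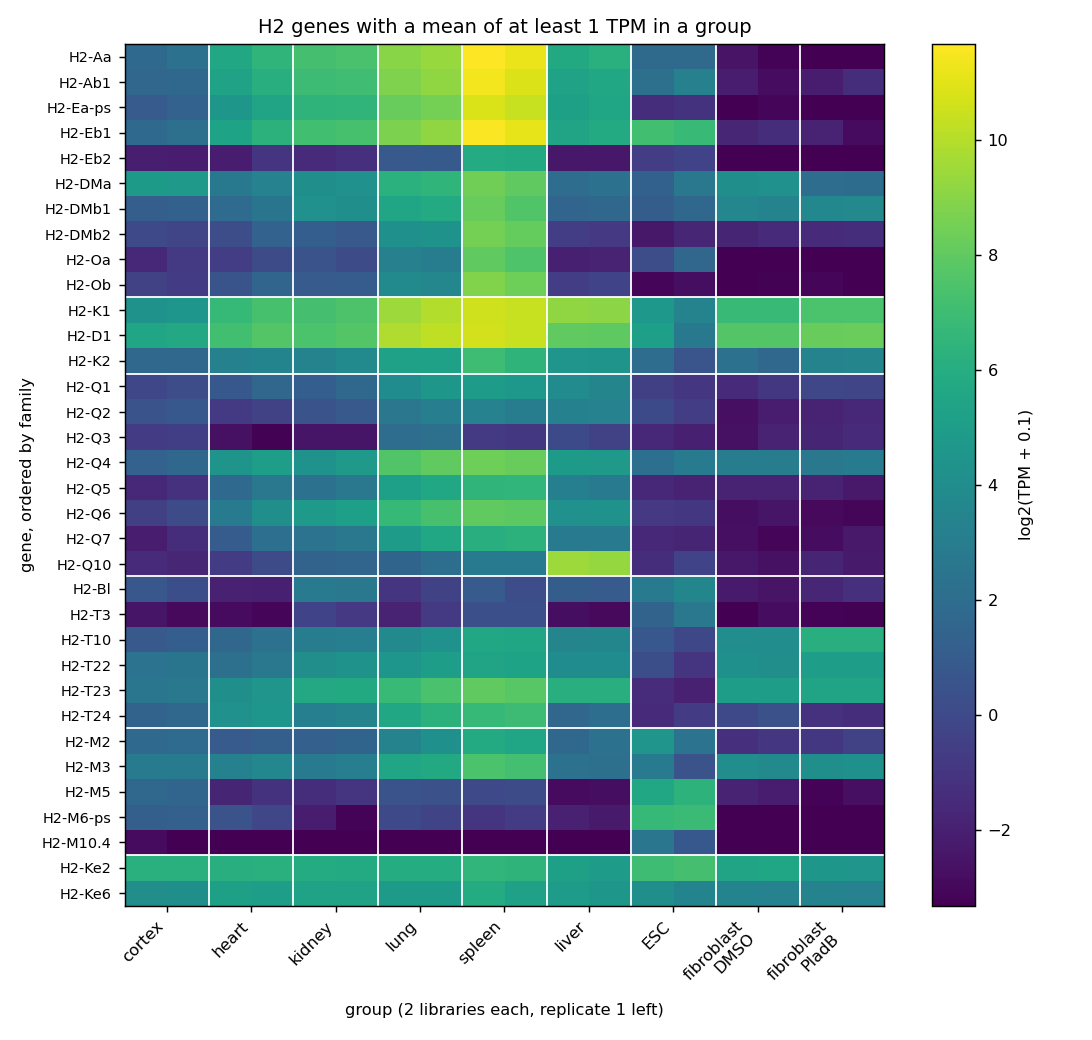
Level of the 34 H2 genes that reached a mean of 1 TPM in some group, as log2(TPM + 0.1), 1 column per library (18) and 1 row per gene. The spleen columns are the highest for 24 genes, while 6 genes including H2-M6-ps and H2-M5 are highest in ESC and H2-Q10 in liver.

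The spleen, an organ packed with B and T cells, held the highest level of most H2 genes, and the class II genes stood out there. H2-Aa read 3264 and 2385 TPM in spleen, 525 and 660 in lung, 153 and 164 in kidney, 48.0 and 89.4 in heart, 55.0 and 71.9 in liver, 3.38 and 5.02 in cortex and 3.47 and 3.53 in ESC. Spleen, lung and kidney did not overlap with any other tissue, whereas heart overlapped with liver and cortex with ESC. Its partner H2-Ab1 followed the same order at the top, with 2712 and 1919 TPM in spleen, 446 and 580 in lung and 123 and 134 in kidney, and 2.95 and 3.29 in cortex. Across all genes, limma called 27 of the 34 tested H2 genes higher in spleen than the mean of the other 6 tissues, where 27% of 20826 genes were called higher, and 1 lower (22.3% of all genes). A call required an adjusted p under 0.05 and at least 1 on the log2(TPM + 0.1) scale. The median difference of the tested H2 genes was 3.70, against 0.21 over all genes tested.

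The strongest spleen differences belonged to class II accessory chains, the modulator H2-O and the loader H2-DM. H2-Ob, the H2-O beta chain, had 454 and 325 TPM in spleen against 14.1 and 12.2 in lung and at most 2.82 in the other tissues, a log2 difference of 8.27 ± 0.24 (SE, limma, adjusted p = 5.0e-09). H2-Oa, its alpha chain, had 259 and 184 TPM in spleen and 8.97 and 8.09 in lung (7.60 ± 0.36, adjusted p = 5.25e-08). H2-DMb2 had 372 and 277 TPM in spleen and 18.4 and 20.1 in lung (7.79 ± 0.28, adjusted p = 1.14e-08). The 2 H2-DM beta genes differed outside these organs: H2-DMb1 kept 19.1 and 17.5 TPM in kidney and 12.3 and 10.5 in DMSO-treated fibroblasts, where H2-DMb2 had 2.13 and 1.70, and 0.188 and 0.249. H2-DMa, the alpha chain shared by both, had 349 and 253 TPM in spleen, 29.3 and 28.0 in cortex and 17.3 and 18.8 in DMSO-treated fibroblasts. Cortex thus held more H2-DMa than kidney (17.7 and 18.8 TPM), although its H2-Aa level was lower in both libraries. H2-Eb2, a further E beta gene, read 60.5 and 56.0 TPM in spleen, 1.75 and 1.77 in lung and at most 0.711 elsewhere.

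H2-Ea-ps, the E alpha gene that the annotation of the C57BL/6J reference lists as a pseudogene (chr17:34341952-34344645), was abundant in these hybrids. It read 1788 and 1367 TPM in spleen, 291 and 375 in lung, 87.6 and 88.5 in kidney, 23.9 and 43.3 in heart, 36.2 and 44.7 in liver and 1.89 and 2.49 in cortex. H2-Eb1, the partner chain, read 3017 and 2243 TPM in spleen and 421 and 578 in lung. The order of the tissues was that of H2-Aa, with heart and liver overlapping. In ESC the class II genes separated: H2-Eb1 read 140 and 108 TPM, near its kidney level of 138 and 157, while H2-Ea-ps read 0.290 and 0.366 and H2-Aa 3.47 and 3.53. Fibroblasts had at most 0.294 TPM of H2-Aa, H2-Ab1, H2-Ea-ps, H2-Eb1 and H2-Eb2 in any of the 4 libraries.

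**Figure D2:**
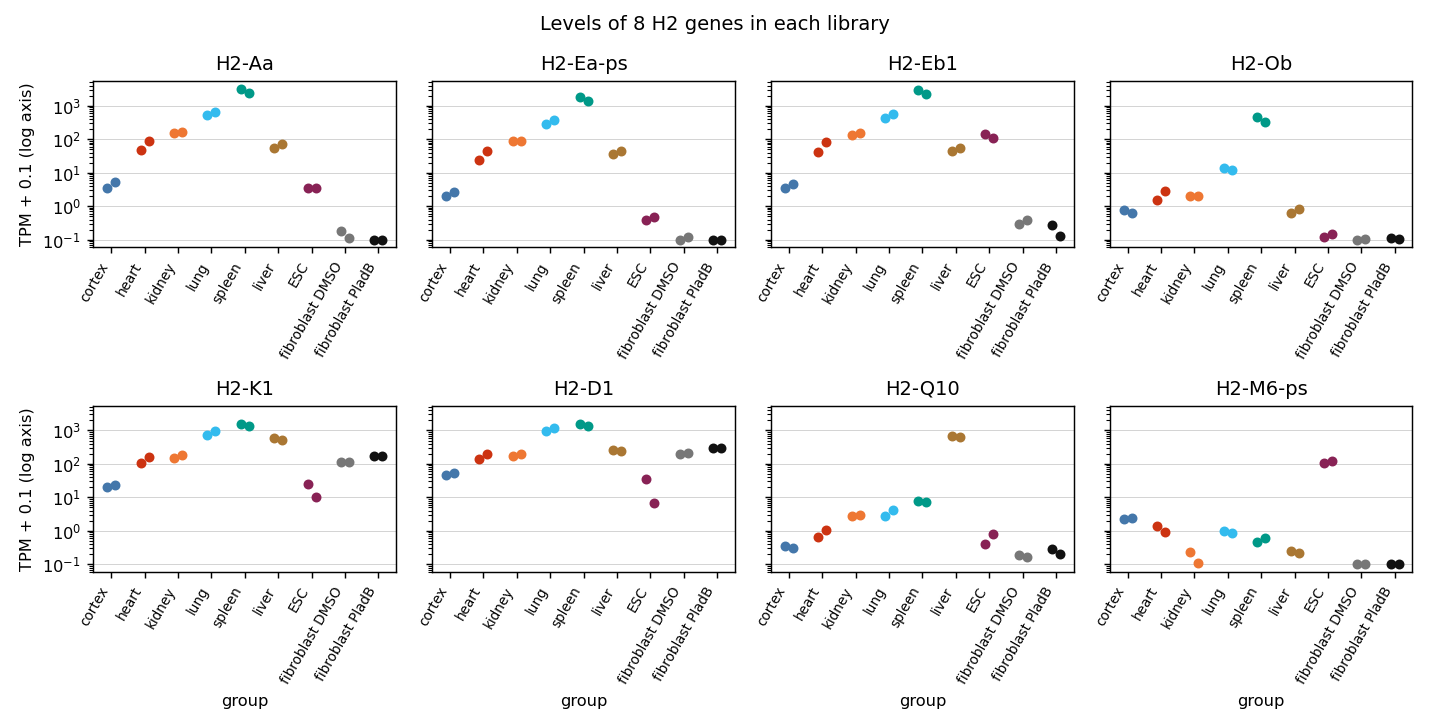
TPM + 0.1 on a log axis for H2-Aa, H2-Ea-ps, H2-Eb1, H2-Ob, H2-K1, H2-D1, H2-Q10 and H2-M6-ps, 1 point per library in each of the 9 groups. H2-Aa and H2-Ea-ps fall together from spleen to cortex, H2-Eb1 alone of the class II genes shown is over 100 TPM in ESC, H2-Q10 rises above 600 TPM in liver alone, and H2-M6-ps above 100 TPM in ESC alone.

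The classical class I genes H2-K1 and H2-D1 were detected in every library. H2-K1 read 1511 and 1365 TPM in spleen, 706 and 977 in lung, 578 and 532 in liver, 149 and 180 in kidney, 105 and 161 in heart, 111 and 117 in DMSO-treated fibroblasts, 21 and 23.8 in cortex and 24.9 and 10.5 in ESC. Heart overlapped with kidney and with DMSO-treated fibroblasts, which did not overlap with each other, and cortex overlapped with ESC. H2-D1 read 1576 and 1381 TPM in spleen, 963 and 1200 in lung, 260 and 249 in liver, 45.2 and 52.5 in cortex and 34.7 and 6.62 in ESC. Liver therefore held more H2-K1 than H2-D1 in both libraries, the reverse of cortex. H2-K2, a transcribed pseudogene next to H2-K1, had 131 and 86.8 TPM in spleen and 38.4 and 38.7 in lung.

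The Q genes encode class I-like molecules, some of them secreted. H2-Q10, whose product is released by the liver into the blood, had 698 and 634 TPM in liver and at most 7.5 in any other library, a log2 difference of 8.80 ± 0.27 (limma, adjusted p = 1.13e-09). H2-Q4 (334 and 286 TPM), H2-Q6 (258 and 243), H2-Q5 (88.2 and 92.4), H2-Q7 (71.1 and 80.2) and H2-Q1 (29.6 and 25.3) were highest in spleen, with lung next. H2-Q1 also held 14.7 and 11.3 TPM in liver against at most 3.12 in kidney and heart. H2-Q2 was at a similar level in liver (9.50 and 9.92 TPM), spleen (10.0 and 7.62) and lung (6.16 and 8.46), whose values overlap in part. H2-Q3, a pseudogene, peaked in lung with 3.98 and 4.53 TPM, above all other libraries (at most 0.920). It reached the mean of 0.5 TPM needed for testing only through lung.

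Among the T and M genes, H2-T23 (Qa-1, a ligand of inhibitory receptors on natural killer cells) had 253 and 223 TPM in spleen, 113 and 165 in lung, 68.3 and 67.5 in liver and 0.278 and 0.159 in ESC. That ESC level was a log2 difference of −7.30 ± 0.16 from the mean of the other tissues (limma, adjusted p = 1.92e-10). H2-T24 had 104 and 125 TPM in spleen, 49.9 and 78.2 in lung and 19.4 and 23.4 in heart, where it was the only H2 gene called higher. H2-T10 and H2-T22, which are recognised by some gamma delta T cells, had 49.4 and 44.9, and 43.5 and 42.2 TPM in spleen. H2-M3, which presents formylated bacterial peptides, had 172 and 147 TPM in spleen, 45.2 and 55.9 in lung and 16.3 and 14.5 in DMSO-treated fibroblasts. H2-M2 had 58.5 and 47.5 TPM in spleen and 10.2 and 18.6 in lung. Of the genes outside antigen presentation, H2-Ke2 ranged from 31.5 TPM in a liver library to 150 in an ESC library and H2-Ke6 from 10.9 in ESC to 58.9 in spleen among the tissues.

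The other tissues were each set against the remaining ones in the same way. In lung 26 of 34 H2 genes were called higher (26.4% of all genes) and 1 lower (14.9%), with a median of 2.37 against 0.20 over all genes. In kidney 7 were higher (16.8%) and 6 lower (18.5%), and in heart 1 was higher (11.9%) and 13 lower (37.7%). In cortex 2 were higher (34.9%), H2-M5 and H2-M6-ps, and 24 lower (20.5%), with a median of −2.28 against 0.38. H2-M6-ps was under the fold limit there without heart replicate 2 (0.98 on the log2 scale) or kidney replicate 2 (0.95), which left 1 gene higher. In liver 5 were higher (8.21%), namely H2-Q10, H2-Q2, H2-K1, H2-Q1 and H2-T23, and 13 lower (68.3%), with a median of −0.23 against −1.56. The liver numbers depended on the scale, because liver libraries give much of their TPM to a few genes and their median gene lay 1.72 below that of the other tissues on the log2 scale (a change of −1.72). With each library centred on its median gene, 19 H2 genes were higher (23.8% of all genes) and 4 lower (19.7%) in liver, while spleen kept 26 higher and 2 lower. The F test over all 7 tissues called 34 of 34, where 99.4% of all genes were called, so it separates no gene from the rest.

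Leukocyte markers were also highest in spleen, but their order over the other tissues differed between markers. Ptprc, the pan-leukocyte marker CD45, read 382 and 347 TPM in spleen, 21.8 and 26.1 in lung, 2.66 and 5.24 in heart, 4.13 and 5.09 in kidney, 2.43 and 3.38 in liver and 1.96 and 2.18 in cortex, and at most 0.022 in ESC and fibroblasts. The 3 B cell markers Cd79a, Cd79b and Ms4a1 summed to 3594 and 2279 TPM in spleen, 72.9 and 40.02 in lung and 8.58 and 24.2 in heart, the organ in which 4 of 25 H2 genes were over 2-fold apart between its libraries (1.99% of all genes there). T cell, macrophage and dendritic cell marker sums were also highest in spleen, at 513 and 379, 451 and 492, and 114 and 118 TPM. The macrophage sum of cortex (75.4 and 77.8 TPM) was above those of heart (52.3 and 65.2), kidney (66.3 and 70.5) and liver (40.5 and 62.1). Yet cortex had the lowest H2-Aa level of the organs. The part of these cells in the tissue differences was not tested, and in bulk tissue fewer cells of a type and less RNA per cell cannot be told apart. Kidney had a lower B cell sum (3.35 and 2.91 TPM) than heart but more H2-Aa in both libraries. The macrophage sum and the T cell sum (5.76 and 8.19 against 4.09 and 5.30 TPM) were higher in kidney than in heart. Ptprc and the dendritic cell sum overlapped between these 2 organs.

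The rest of the presentation pathway was counted in spleen and lung, where 27% and 26.4% of all genes were called higher. Of 15 class I pathway genes 12 were called higher in spleen and 10 in lung, of 8 class II pathway genes 5 and 4, of 14 transcription and interferon genes 11 and 7, and of 6 other class I-like genes 4 and 3, with 2 of the class II pathway genes and 1 class I-like gene lower in spleen. The 5 with the highest spleen level were Cd74, the invariant chain that guides class II molecules (9846 and 7088 TPM), B2m, the class I light chain (4020 and 4426), the protease Ctss (753 and 779), the thiol reductase Ifi30 (818 and 637) and the chaperone Calr (462 and 566). Ciita, the master activator of class II genes, read 129 and 119 TPM in spleen, 10.1 and 12.4 in lung, 5.09 and 4.07 in kidney and 0.176 and 0.179 in cortex. In ESC it read 0.167 and 0.227, in cells with over 100 TPM of H2-Eb1.

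In ESC 6 of 34 H2 genes were called higher (35.8% of all genes) and 24 lower (25.4%), with a median of −2.83 against 0.36. The 6 were H2-M6-ps (108 and 119 TPM, log2 difference 7.54 ± 0.26, limma, adjusted p = 3.11e-09), H2-M5 (49.99 and 82.2), H2-M10.4 (5.86 and 1.66), H2-T3 (2.62 and 6.42), H2-Bl (7.06 and 11.9) and H2-Ke2 (128 and 150). H2-M6-ps and H2-M5 are neighbours, at chr17:36969207-36971396 and chr17:36983785-36997955, and both were also the genes called higher in cortex, at 2.21 and 2.33, and 3.14 and 2.81 TPM. H2-M10.4 was listed at 0 in 15 of the 18 libraries. It and H2-T3 reached the mean of 0.5 TPM needed for testing only through ESC, so their calls partly follow from that filter. The 2 ESC clones differed in many H2 genes: 9 of the 20 with a mean of at least 1 TPM were over 2-fold apart, where 20.5% of all such genes were. H2-D1 (34.7 and 6.62 TPM), H2-M3 (6.84 and 1.33), H2-M2 (22.3 and 5.06) and H2-K1 (24.9 and 10.5) were higher in clone 1, and H2-T3, H2-DMa and H2-Oa (1.08 and 2.98) in clone 2. Marker sums also differed between the clones, with 7.16 and 80.4 TPM for T cells and 152 and 40.3 for macrophages, while Ptprc was near 0 in both, and their part in the result was not tested.

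To ask which parental copy was expressed, junction reads that carry a species difference were summed per gene and allele over its SE events. A read can support several events of a gene, so sums count some reads more than once, and a gene that is absent from a table has an unknown, not a zero, share. Of the 44 genes, 29 had events by allele and 28 had enough reads (a mean of 10 per allele and library) in at least 1 of the 9 tables, giving 127 tests of gene and table. A call required an adjusted p under 0.05 over all genes of the table (limma voom) and a ratio of at least 2-fold (1 on the log2 scale). More C57BL/6J reads were called in at least 1 table for 12 of the 28 genes, 7 had more SPRET/EiJ reads, 0 were called in both directions, and 9 were never called. The order of the alleles was checked on imprinted genes in the tables other than ESC and liver. There 11 of 11 pairs of paternal gene and table were mostly SPRET/EiJ and 24 of 25 maternal ones mostly C57BL/6J. Liver listed none of these genes, and ESC was left out of the check. In ESC the paternal genes Peg3, Snrpn and Mest were 73.7, 50.2 and 45.7% C57BL/6J, and the maternal genes 28.7 to 45.5%. The order in ESC and liver was thus taken to be that of the other tables.

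By table, members called toward C57BL/6J and toward SPRET/EiJ numbered 2 and 1 of 9 in cortex (3.94% and 3.06% of all genes), 5 and 2 of 14 in heart (5.85% and 5.51%) and 6 and 2 of 15 in kidney (6.24% and 5.54%). In lung they numbered 9 and 4 of 23 (5.6% and 4.92%), in spleen 6 and 3 of 22 (3.63% and 3.34%) and in liver 4 and 1 of 13 (5.2% and 5.23%). In ESC they were 2 and 0 of 14 (0.342% and 0.622%), and 3 and 1 once each library was kept as a block, since both alleles are read in the same library. In fibroblasts they were 3 and 2 of 8 with DMSO (14.3% and 10.2%) and 2 and 2 of 9 with PladB (15.4% and 11.3%). In the organs these shares were above those of all genes in both directions. Toward SPRET/EiJ the counts of cortex and liver were a single gene each. H2-T10, a close copy of H2-T22, was called that way in 8 of 9 tables and is in the count of every organ.

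**Figure D3:**
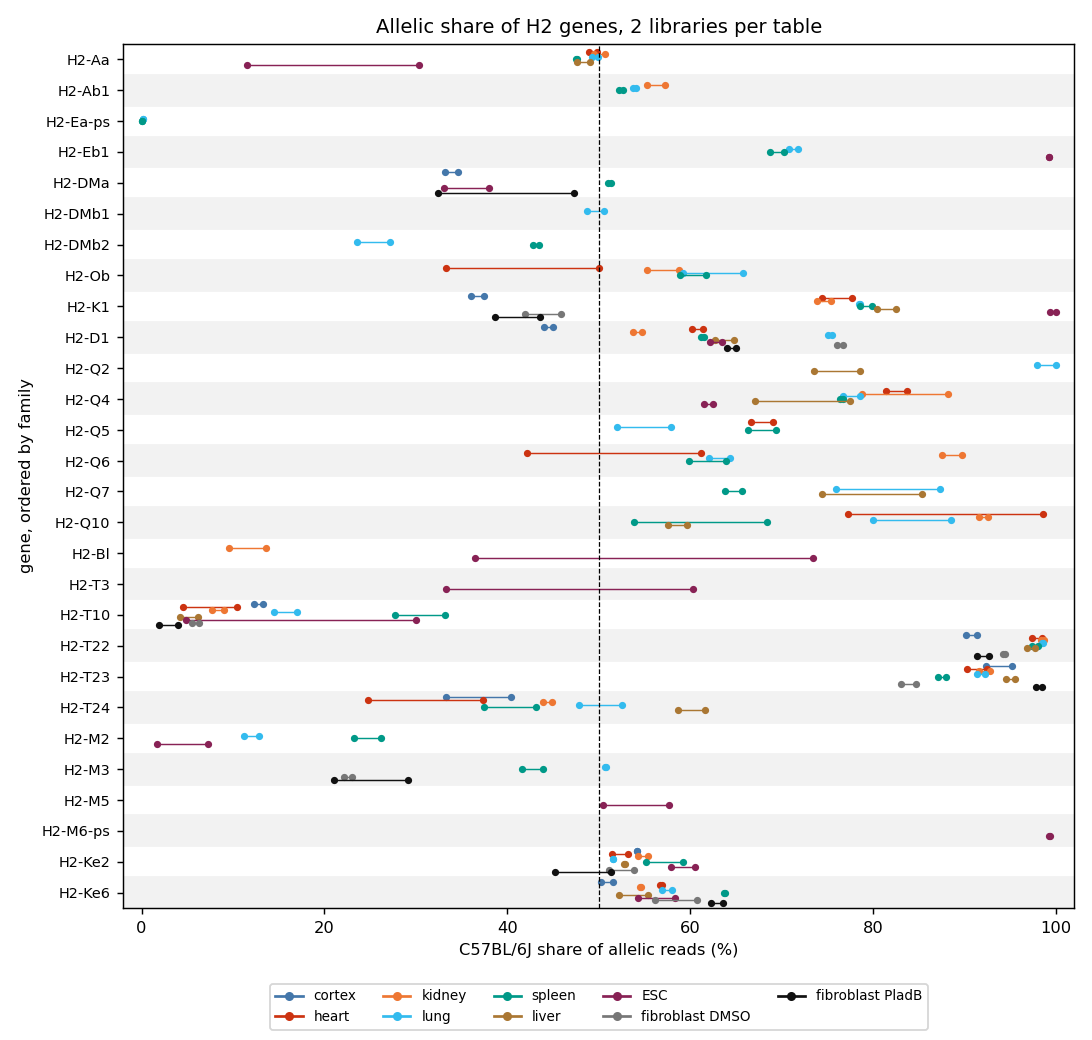
Share of allele-assigned junction reads that came from the C57BL/6J allele, in percent, per H2 gene and table, with 1 point per library. H2-T22 and H2-T23 lie between 83 and 99% and H2-T10 between 1.9 and 34% wherever they were called, H2-Aa lies near 50% in the organs, and H2-Ea-ps lies at the bottom of the scale.

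E alpha gave the most one-sided ratio. H2-Ea-ps had 12 and 7 C57BL/6J reads against 15124 and 11648 SPRET/EiJ reads in spleen, and 4 and 6 against 3144 and 3440 in lung, so that 0.0793 and 0.0601% and 0.127 and 0.174% of its reads were C57BL/6J (limma voom, adjusted p = 0.00045 and 0.000343). The partner chain leaned the other way: H2-Eb1 was 68.8 and 70.3% C57BL/6J in spleen and 70.8 and 71.7% in lung. In ESC, where H2-Eb1 is expressed with little H2-Ea-ps, it was 99.2 and 99.2% C57BL/6J, with 2191 and 2024 reads against 17 and 17 (log2 ratio 6.90 ± 0.50, adjusted p = 0.0238). The A chains were close to even. H2-Aa ranged from 47.5 to 50.7% C57BL/6J over the 10 libraries of heart, kidney, lung, spleen and liver, and H2-Ab1 from 52.3 to 57.3% in kidney, lung and spleen. In ESC H2-Aa had 10 and 31 C57BL/6J reads against 77 and 71, which was not called (adjusted p = 0.267).

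The other class II genes moved less. H2-DMa was 33.2 and 34.6% C57BL/6J in cortex, just under the 2-fold limit (log2 ratio −0.98 ± 0.12, limma voom, adjusted p = 0.000261), but 51.0 and 51.3% in spleen. H2-DMb2 was 27.2 and 23.5% in lung, where it was called, and 42.8 and 43.4% in spleen. H2-DMb1 was near even in lung (48.7 and 50.6%), and H2-Ob ranged from 58.8 to 61.8% in spleen, without a call. The difference of these shares between tissues was not tested, since the genes lack events shared by all tables.

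The neighbouring T genes H2-T22 and H2-T10 went in opposite directions in the same cells. H2-T22 was called toward C57BL/6J in 8 of 8 tables, with 90.2 to 91.3% in cortex, 94.2 to 94.4% in DMSO-treated fibroblasts, 91.3 to 92.7% with PladB and 96.8 to 98.6% in heart, kidney, lung, spleen and liver. H2-T10 was called toward SPRET/EiJ in 8 of 9 tables, with 4.2 to 6.2% C57BL/6J in liver, 5.5 to 6.3% in DMSO-treated fibroblasts and 27.8 to 33.1% in spleen. These genes are close copies of each other, so a read from one may have been placed on the other. Their reads added together were 48.8 and 48.2% C57BL/6J with DMSO, 49.5 and 53.3% with PladB, 46.2 and 40.9% in cortex and 49.0 and 43.4% in heart. They were 60.2 and 56.4% in liver, 60.5 and 58.0% in spleen, 67.2 and 70.3% in lung and 78.8 and 80.6% in kidney. These sums count a read once per event, so they weigh each gene by its events and do not show where reads were placed. H2-T23 was called toward C57BL/6J in 8 of 8 tables, from 83.0% in a DMSO library to 98.5% in a PladB library, although the fibroblast values came from different exons. H2-T24 was 24.8 and 37.3% C57BL/6J in heart, where it was called, and 47.8 and 52.6% in lung.

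Of the Q genes 6 were called in at least 1 table (H2-Q2, H2-Q4, H2-Q5, H2-Q6, H2-Q7 and H2-Q10), each toward C57BL/6J. H2-Q4 was called in 5 of 6 tables, from 67.1% in a liver library to 88.1% in a kidney library. H2-Q10 was 59.7 and 57.5% in liver, where it is abundant, which was not called (adjusted p = 0.0573), and 92.6 and 91.6% in kidney, where 448 and 502 C57BL/6J reads faced 36 and 46. H2-Q2 had 96 and 83 C57BL/6J reads in lung against 2 and 0. H2-Q6 was 89.7 and 87.5% in kidney, and H2-Q7 75.9 and 87.3% in lung. Both rest on a minority of the gene's reads, with 23.6 and 26.9%, and 31.2 and 26.5%, assigned to an allele. H2-Q5 was 66.3 and 69.4% in spleen. Among the M genes, H2-M2 was 12.8 and 11.2% C57BL/6J in lung and 23.3 and 26.2% in spleen, and both were called toward SPRET/EiJ. H2-M3 was 23 and 22.1% with DMSO and 29.1 and 21.1% with PladB, both called, but 50.8 and 50.7% in lung and 41.6 and 43.9% in spleen. H2-M6-ps was 99.3 and 99.3% C57BL/6J in ESC, with 528 and 744 reads against 4 and 5, and its neighbour H2-M5 was 57.6 and 50.4%. H2-Bl was 9.6 and 13.6% C57BL/6J in kidney.

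For H2-K1 and H2-D1 the share depended on the exon read. H2-K1 was called toward C57BL/6J in heart, kidney, lung, spleen and liver (73.9 to 82.4%), but was 36.1 and 37.4% in cortex, 45.8 and 42.0% with DMSO and 38.7 and 43.6% with PladB. In ESC it had 309 and 103 C57BL/6J reads against 2 and 0, which was called only with the library as a block (adjusted p = 0.193 without and 0.00909 with it), as was H2-M2, with 4 and 3 C57BL/6J reads against 236 and 38 (0.381 and 0.0218). H2-D1 was called in lung (75 and 75.5%) and with DMSO (76.1 and 76.7%). Yet within H2-D1 the 270-base exon at chr17:35263379-35263648 was 91.8 to 98.9% C57BL/6J, and the 276-base exon after it (chr17:35263839-35264114) 81.0 to 96.4%. In class I genes, exons of this size encode the domains that hold the peptide, the part that varies most. The 39-base exon at chr17:35266688-35266726, part of the cytoplasmic tail, was 30.4 to 56.6% C57BL/6J. With the event of the most reads in place of the sum, the lung ratio of H2-D1 went from 1.57 to −0.0336 and the DMSO ratio from 1.66 to −1.12 on the log2 scale. The 39-base exon of H2-K1 (chr17:33996616-33996654) ranged from 23.1 to 100% between events that join it to different neighbours. H2-K1 did not share the fall of H2-D1 along the gene. Its 270-base exon (chr17:33999734-34000003) was 38.0 to 74.1% C57BL/6J and its 276-base exon (chr17:33999271-33999546) 41.6 to 86.3%. Its 33-base exon (chr17:33996827-33996859) was 76.5 to 100%. How reads were placed on the diverged exons of either genome was not tested.

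**Figure D4:**
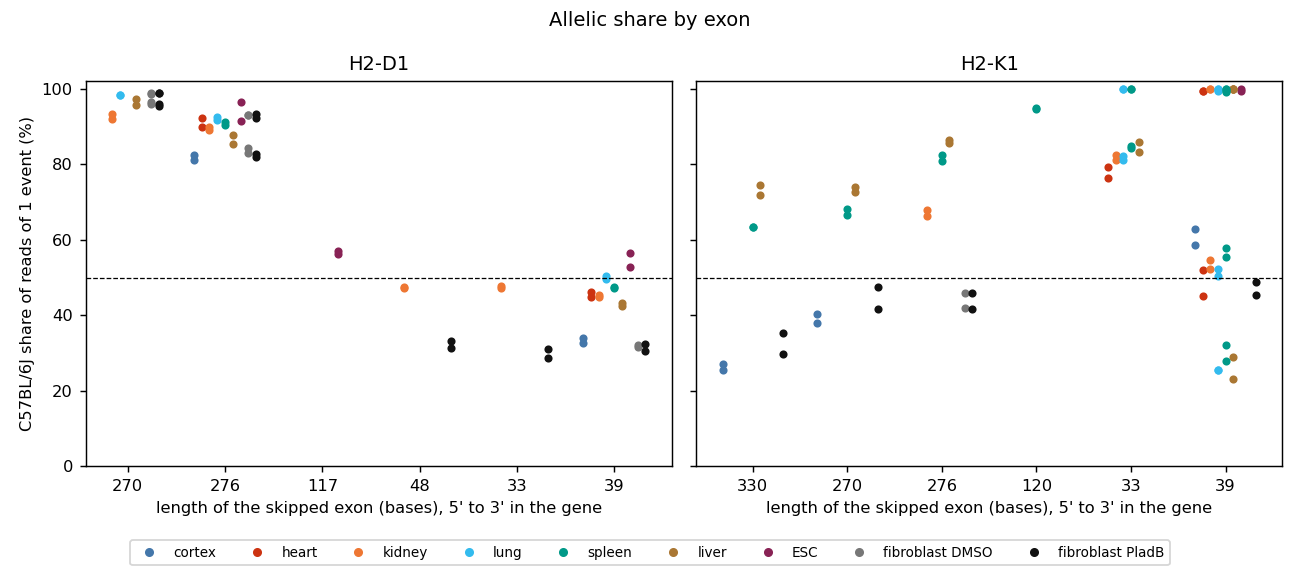
Percent C57BL/6J of assigned reads for each SE event of H2-D1 and H2-K1, exons in 5′ to 3′ order, 1 point per library. In H2-D1 the share falls from over 80% at the 270- and 276-base exons to between 30 and 57% at the 39-base exon, while H2-K1 events of a single exon spread from 23 to 100%.

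Whether the allele ratio changed between tissues or with treatment was tested on events shared by all tables. For tissue, 4 H2 genes could be tested (H2-D1, H2-Ke2, H2-Ke6 and H2-T10) and 0 were called by limma voom (16.1% of all genes), with 1 at an unadjusted p under 0.05. With the library kept as a block 3 were called: H2-D1 (adjusted p = 1.02e-05), H2-Ke6 (0.0041) and H2-Ke2 (0.0262). On those shared events H2-D1 ranged from 44.4% C57BL/6J in cortex to 68.5% in ESC, H2-Ke6 from 50.8% in cortex to 63.7% in spleen and H2-Ke2 from 52.3% in heart to 61.1% in ESC. H2-T10 ranged from 1.79% in cortex to 20.7% in spleen (adjusted p = 0.0627, 0.141 with the block). For treatment 0 of 7 genes were called (11% of all genes), 2 with an unadjusted p under 0.05, and 1 was called with the block, H2-Ke2 (52.6% with DMSO, 48.3% with PladB, adjusted p = 0.0193). H2-D1 was 76.4% with DMSO and 77.0% with PladB on shared events, and H2-T22 94.3 and 94.3%.

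A large part of H2 reads could be assigned to an allele. The median gene share was 61.2 to 63.2% over all genes in the 7 tissues, whereas the H2 median was highest in ESC (97.4%) and lung (93.9%), followed by heart (90.8%), spleen (88.2%), liver (87.2%), cortex (85.5%) and kidney (85.3%). In fibroblasts, whose tables rest on longer reads, the medians were 98.8 (DMSO) and 99.7% (PladB) against 88.1 and 86.8%. Some H2 genes were far lower. H2-Q7 had 7.34 and 7.82% in kidney, 24.1 and 25.1% in spleen and 31.2 and 26.5% in lung, and H2-Q6 23.6 and 26.9% in kidney. H2-Ea-ps had 33.7 and 33.2% in spleen and 26.5 and 35.5% in kidney, and H2-T3 14.5 and 24.4% in ESC. For those the allele ratio describes a minority of the reads.

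Inclusion of H2 exons was then compared between alleles as percent spliced in (PSI, given here as a fraction from 0, always skipped, to 1, always included). A call required 20 reads per allele and library, an adjusted p under 0.05 in a quasi-binomial test with limma moderation, a difference of at least 0.1 and allelic reads that give about the same PSI as all reads. Calls numbered 5 of 74 events for spleen (1.29% of all events), 4 of 50 for lung (1.71%), 3 of 28 for kidney (1.75%), 2 of 21 for heart (1.68%), 1 of 28 for liver (1.16%), 0 of 16 for cortex (1.59%) and 0 of 14 for ESC (0.191%), and 1 of 19 with DMSO (1.75%) and 2 of 23 with PladB (1.69%). By the same limma test, cortex had 2 events and ESC 1 event at an unadjusted p under 0.05. With the library as a block 0 events of any gene were called in any table, where each fit has a single residual degree of freedom and the smallest adjusted p was 0.457 in liver.

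The widest difference was in H2-Q10. Its 33-base exon at chr17:35473768-35473800 had a PSI of 0.991 and 0.992 on the C57BL/6J allele in liver (25780 and 18444 reads), and 0.00132 and 0.00074 on the SPRET/EiJ allele (9031 and 7580 reads). The difference of 0.990 had an adjusted p of 9.61e-07 (0.457 with the library block). Junction reads of the C57BL/6J allele thus joined the exon in, and those of the SPRET/EiJ allele skipped it, in both libraries. A 33-base exon of class I genes lies in the stretch for the cytoplasmic tail.

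The other allelic calls fell in H2-D1 and H2-T24. The 276-base exon of H2-D1 was included more on the C57BL/6J allele in heart (0.992 and 0.993 against 0.826 and 0.804), kidney, lung, spleen, DMSO and PladB, by 0.139 to 0.189. SPRET/EiJ reads were few at this exon (293 and 286 in heart against 2588 and 3389). The 270-base exon of H2-D1 was called with PladB, where the SPRET/EiJ values of 0.920 and 0.557 were far apart. In H2-T24 the 140-base exon at chr17:36014557-36014696 and the 273-base exon at chr17:36015384-36015656 were skipped more on the C57BL/6J allele in kidney, lung and spleen, the latter also in heart. In kidney the 140-base exon had 0.167 and 0.246 on C57BL/6J against 0.942 and 0.853, on 43 to 67 reads. In lung the 273-base exon had 0.263 and 0.302 against 0.749 and 0.764. The C57BL/6J libraries were lower than the SPRET/EiJ ones in each of these calls of H2-T24.

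From all reads, PSI was compared between tissues for 79 H2 events in 24 genes, and 6 events in 4 genes were called (9.03% of all events). Most H2 exons were constitutive, 59 of the 79 having a mean PSI of at least 0.95. The 105-base exon of H2-T22 (chr17:36040225-36040329) had 0.371 and 0.401 in cortex and 0.907 to 0.992 in heart, kidney, lung, spleen and liver (adjusted p = 1.46e-07, limma). Both cortex libraries were far below all others, on 120 and 138 reads. The 39-base exon of H2-D1 had 0.890 and 0.904 in cortex and at least 0.961 in the other tissues, a range of means that was under the limit of 0.1 without cortex replicate 1 (0.0951). The 273-base exon of H2-T24 was included most in spleen (0.671 and 0.709) and least in lung (0.471 and 0.466), with its 140-base exon at 0.675 and 0.691 in spleen and 0.434 and 0.419 in lung. In H2-Q7 the 117-base exon rose from 0.0764 and 0.0714 in kidney to 0.401 and 0.384 in spleen, and the 285-base exon from 0.0447 and 0.0889 to 0.259 and 0.297. The call of this 285-base exon was lost with a replicate block (limma, adjusted p = 0.000756 without and 0.118 with it). Each of these 4 exons of H2-T24 and H2-Q7 also belongs to another event, in which it is joined to other neighbours, that was not called and had a PSI of at least 0.778 in every library tested. The 140-base exon of H2-T24 was at 0.936 and 0.912 in spleen and 0.922 and 0.866 in lung in that event, so these values depend on the event read.

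In PladB-treated fibroblasts most class I genes held or gained TPM while the median gene fell. Of the 14 H2 genes tested (mean of at least 0.5 TPM), 8 were called higher by limma (15.4% of 14283 genes) and 4 lower (71.4%), with a median log2 change of 0.30 against −1.10 over all genes. TPM is a share of each library, and the library medians shifted by −1.50 between the conditions. With each library centred on its median gene, 12 were higher (53% of all genes) and 1 lower (33.6%).

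H2-T10 rose most, from 16.1 and 16.2 TPM with DMSO to 69.0 and 70.6 with PladB, a log2 change of 2.11 ± 0.04 (limma, adjusted p = 4.41e-06). Its close copy H2-T22 went from 18.7 and 17 to 32.5 and 32.6 TPM (0.86 ± 0.06). H2-K2 went from 4.81 and 3.14 to 10.5 and 11.2 TPM, and H2-Q1 from 0.259 and 0.431 to 0.825 and 0.765. In TPM the PladB libraries were above both DMSO libraries in each of these genes. H2-Q1 reached the mean of 0.5 TPM needed for testing only through PladB. The skipped-exon events with the most reads did not show the gains of H2-T10 and H2-T22. That of H2-T10 had 686 and 712 reads with DMSO and 635 and 624 with PladB, that of H2-T22 1038 and 1070, and 899 and 1089. That of H2-K1 rose from 6582 and 7290 to 10483 and 11673 reads. The retained-intron event of H2-T10 had 31 and 30 reads with DMSO and 110 and 86 with PladB. This gap between TPM and junction reads was not tested. The classical genes rose less: H2-K1 from 111 and 117 to 173 and 169 TPM (0.58 ± 0.04), H2-D1 from 202 and 206 to 295 and 304 (0.55 ± 0.03) and H2-T23 from 33 and 32.7 to 42.9 and 44.0 (0.40 ± 0.04). H2-M3, at 16.3 and 14.5 against 17.5 and 18.1 TPM, was just inside the threshold (limma, adjusted p = 0.0495, 0.0702 with a replicate block), and lost the call without DMSO replicate 2 (0.2499) or either PladB replicate (0.0988 and 0.157). H2-Q1 lost it without PladB replicate 2 (limma, adjusted p = 0.0576).

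H2-DMa fell from 17.3 and 18.8 TPM to 4.08 and 3.92, a log2 change of −2.14 ± 0.07 (limma, adjusted p = 8.32e-06), and it was also lower after centring (−0.65). Its partner H2-DMb1 had 12.3 and 10.5 against 12.7 and 13.4 TPM and was not called (adjusted p = 0.111). H2-T24 (0.885 and 1.20 to 0.348 and 0.291 TPM), H2-Ke2 (43.2 and 44.4 to 24.5 and 22.8) and H2-Q4 (7.87 and 8.07 to 6.33 and 6.72) were also called lower, but these 3 turned upward once libraries were centred, to 0.0628, 0.61 and 1.21 on the log2 scale. In fibroblasts H2-T24 reached the mean of 0.5 TPM needed for testing only through DMSO. H2-Q4 was no longer called without either DMSO replicate (limma, adjusted p = 0.0580 and 0.0818). H2-Ke6 (10.7 and 9.95 against 10.37 and 10.1 TPM) was not called.

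**Figure D5:**
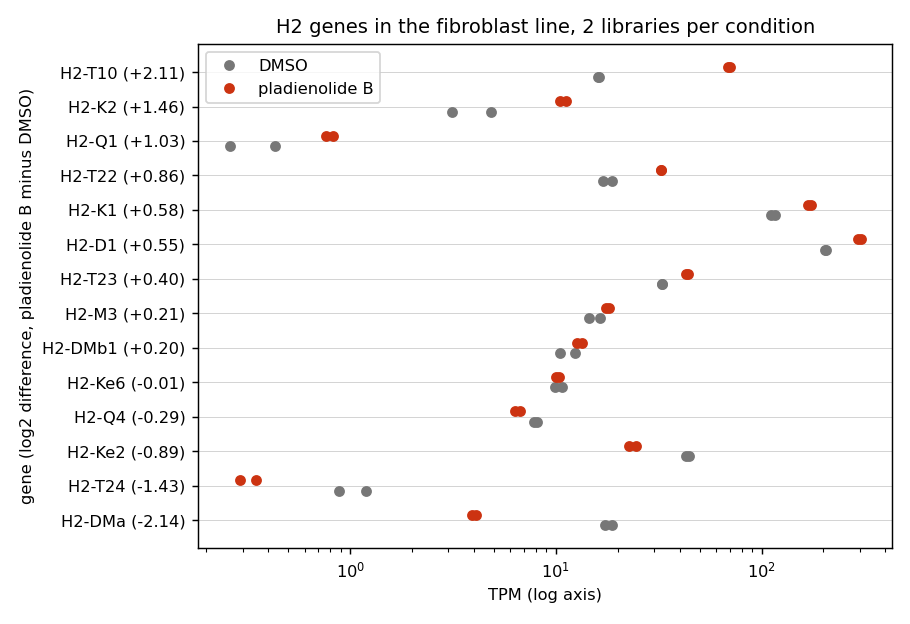
TPM of the 14 tested H2 genes in fibroblasts, 2 libraries with DMSO and 2 with PladB, on a log axis, 1 point per library. H2-T10 stands about 4-fold higher with PladB (69.0 and 70.6 against 16.1 and 16.2 TPM), and H2-DMa drops from 17.3 and 18.8 to 4.08 and 3.92 TPM.

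Pathway partners of class I went in both directions with PladB, where 15.4% of all genes were called higher and 71.4% lower. Of 15 class I pathway genes 6 were higher and 5 lower: the light chain B2m rose from 1927 and 2018 to 2709 and 2791 TPM, as did Calr, Pdia3, Canx, Tapbp and Psme1, while the peptide transporter genes Tap1 (8.23 and 7.78 to 1.52 and 1.90 TPM, log2 change −2.17) and Tap2 (−0.34), the class I activator Nlrc5 (−1.60), Psmb10 (−0.78) and Tapbpl (−0.25) fell. Of 14 transcription and interferon genes 13 were lower, with Creb1 (−3.51), Jak2 (−2.32) and Rfxank (−2.22) among them, and Irf1 alone was higher (0.43). Of 5 class II pathway genes tested 3 were higher (Ctsl, Cd74 and Lgmn) and 2 lower (March8 and Ifi30), and of 5 other class I-like genes 2 were higher (Cd1d1 and Fcgrt) and 2 lower (Raet1e and Mr1). With each library centred on its median gene (53% of all genes higher and 33.6% lower), 13 of the class I pathway genes were higher and 1, Tap1 (−0.67), lower. Tap2 (1.16), Psmb10 (0.72) and Tapbpl (1.25) thus turned upward and Nlrc5 (−0.10) was no longer called (limma, adjusted p = 0.624). After centring 5 of the 14 transcription and interferon genes were higher and 7 lower, Creb1, Jak2 and Rfxank among the latter, and the 5 class II pathway and 5 class I-like genes tested were higher. The leukocyte marker Ptprc was at or below 0.00289 TPM in all 4 fibroblast libraries, Cd3e was listed at 0, and the B cell markers summed to 0.0573 and 0.0158 TPM with DMSO and 0.383 and 0.453 with PladB.

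No H2 exon or intron was called for a change of splicing with PladB. Of 44 H2 SE events 0 were called by the quasi-binomial limma test, where 7.12% of all events were called lower in inclusion and 0.106% higher, and 6 had an unadjusted p under 0.05. Their differences ranged from −0.041 to 0.059, with 31 below and 13 above 0. The retained-intron table was taken to list PladB before DMSO, as the SE table does, which was not checked on its own, and the direction of its values rests on that. In that order more introns of all genes rose than fell, and the paper reports an increase in intron retention with PladB. Of 7 retained-intron events 0 were called (35.1% of all events higher and 2.89% lower by the same test), 1 at an unadjusted p under 0.05. This was the H2-K1 intron at chr17:33996860-33997037, retained in 0.0112 and 0.0152 of reads with DMSO and 0.0247 and 0.0484 with PladB, a difference of 0.023 that is under the limit of 0.1 (adjusted p = 0.0103). The retained-intron differences of the H2 genes ran from −0.033 to 0.064, with 6 of 7 above 0.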

How the data were processed

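RNA from the 18 libraries was sequenced as stranded mRNA, and the H2 genes and gene lists used here were chosen with earlier results of these data known. Per the study's methods, the authors trimmed reads, aligned them with HISAT2 2.0.1 (submitters' processing notes) to mm10 and a SPRET/EiJ genome built from it, assigned each read to the allele with fewer mismatches, and counted junction reads with rMATS. The deposited TPM values came from fractional counting of reads on Ensembl genes. The deposited SE and retained-intron tables list inclusion and skipping reads of the 2 replicates, C57BL/6J before SPRET/EiJ in the allelic tables. The position in a list was taken as the replicate number: over genes with at least 200 reads, the ratio of the first to the second entry correlated with the TPM ratio of replicate 1 to 2 (r = 0.441 to 0.963 over genes in 18 checks). The deposited p-values, FDR and PSI difference columns hold the authors' own tests and were not used. Reads assigned to neither allele are absent from the allelic tables, so shares describe exons that carry a species difference.

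From these files, TPM was tested with limma 3.58.1 (R 4.3.3) on log2(TPM + 0.1) for genes with a mean of at least 0.5 TPM, which understates the change of low genes. Allelic reads were tested with limma voom and TMM factors, because the deposited cells hold comma-separated lists. A count model (edgeR, then DESeq2) had been planned and was not run. PSI was tested with a quasi-binomial model whose dispersion was moderated by limma, on events with at least 20 reads. P-values were adjusted by Benjamini-Hochberg over all genes or events of a table. With 2 replicates a group they measure the spread between these libraries. For the fibroblasts nothing says that cultures were separate. On simulated data the tests recovered 100% of 4-fold changes for spleen TPM (20826 genes) and 91% for PladB TPM (14283 genes). They recovered 99% for spleen allelic reads (8688 genes) and 62% of PSI changes of 0.25 for spleen (21726 events). The PSI changes were placed at events of intermediate inclusion, whereas 59 of 79 H2 events had a mean PSI of at least 0.95. The alleles of a library were simulated as independent, whereas they correlated in the data (r = 0.418 in spleen). These rates thus do not give the power for most H2 events or for paired alleles.

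Every H2 gene with a mean of at least 1 TPM in a group was named, as were called events and the event with the most reads of the genes described. The organs share 2 animals and replicate numbers, but nothing says that a number marks an animal, and only 6 of 15 pairs of organs had a correlation of deviations over 0.1 (0.0331 to 0.180), so the numbers were not taken to pair libraries. The alleles of a library are paired by construction. RefSeq positions are from GRCm38.p6. A further marker gene is not reported here. The alternatives tried were another pseudocount, no low filter, centring, another scaling of reads, the event with the most reads, more reads per event, a prior without trend, blocks, all 18 libraries, and leaving out each library.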

Additional observations from a re-analysis of the deposited data

Results flagged for a closer look

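In 6 cases a gene that was called toward the same allele in some tables lay on the other side of 50% in both libraries of another table. The difference between tables was tested for H2-D1 alone, between tissues on the events they share, with the values of the next paragraph, and was not tested for the other genes, whose tables list different events. H2-D1, called toward C57BL/6J in lung and with DMSO, was at 44.5% C57BL/6J in cortex (mean of 2 libraries). These sums rest on different events. In cortex the 276-base exon was 81.0 and 82.6% and the 39-base exon 33.9 and 32.7%. With DMSO the 39-base exon was 32.2 and 31.5%, and the 276-base exon 82.9 and 84.3% in 1 event and 93.0 and 93.1% in another. Lung and DMSO also had events of the 270-base exon (95.9 to 98.9% with DMSO), for which cortex listed none with at least 20 reads. H2-K1, called toward C57BL/6J in 5 organs, was at 36.7% in cortex, 43.9% with DMSO and 41.1% with PladB. The sums of H2-K1 also rest on different events. In the event of the 39-base exon that cortex lists, cortex was 62.7 and 58.6%, against 45.2 to 57.8% in heart, kidney, lung and spleen. In the event of the 270-base exon, cortex was 38.0 and 40.5%, against 68.2 and 66.7% in spleen and 74.1 and 72.6% in liver. H2-M3, called toward SPRET/EiJ in fibroblasts, was at 50.7% in lung. H2-T24, called toward SPRET/EiJ in heart, was at 60.2% in liver, on 53 and 71 against 33 and 50 reads.

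On events shared by all tables, the limma voom test of allele by tissue with the library as a block gave an adjusted p of 0.0262 for H2-Ke2, 1.02e-05 for H2-D1 and 0.0041 for H2-Ke6, and that of allele by treatment 0.0193 for H2-Ke2. Without the block none of these 4 passed (adjusted p = 0.539, 0.657, 0.701 and 0.120). H2-D1 was above 50% C57BL/6J in heart, kidney, lung, spleen, liver and ESC, and below it in cortex.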

How the results depend on the processing

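Over the H2 genes and events named singly, 3404 comparisons with an alternative kept their direction and side of the threshold, 117 lost the threshold, 30 moved and 8 reversed. Centring each library on its median gene, chosen after seeing the data, gave 0 H2 genes higher in cortex, 2 higher in heart, 3 lower in lung, 2 lower in spleen, 19 higher and 4 lower in liver, and 1 lower after PladB. It reversed H2-Ke2 (0.52), H2-T24 (0.0864) and H2-Eb1 (0.30) in liver and H2-Ke2 (0.61), H2-Q4 (1.21) and H2-T24 (0.0628) after PladB. A pseudocount of 1 gave 0 higher in cortex and 3 in kidney. With the event of the most reads, H2-D1 went to −0.0336 in lung and −1.12 with DMSO, where the exon read differs. With the library as a replicate block 3 genes were called for allele by tissue, 1 for allele by treatment, and 0 allelic PSI events in tissues, DMSO or PladB, with 1 residual degree of freedom per event. A replicate block by number for TPM took the threshold from 3 of 174 gene results, H2-M3 after PladB among them. The median assigned share in cortex became 87.1% on events with at least 20 reads. The causes of the other changes were not tested.

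Leaving out each library in turn gave these ranges. H2 genes higher and lower were 1 to 2 and 22 to 25 in cortex, 1 and 11 to 19 in heart, 5 to 7 and 4 to 6 in kidney, 25 to 26 and 1 in lung, 27 to 28 and 1 in spleen, 5 to 6 and 13 to 14 in liver, 5 to 6 and 23 to 24 in ESC, 33 to 34 with any difference, and 6 to 9 and 3 to 4 after PladB. For alleles, 1 library was left for each table, so these are ratios and differences with no test: 36 to 39 pairs of gene and table toward C57BL/6J and 15 to 17 toward SPRET/EiJ in tissues, 3 and 2 with DMSO, 2 and 2 to 3 with PladB, and 22 to 24 allelic PSI events in tissues, 2 with DMSO and 1 to 2 with PladB. PSI between tissues gave 5 to 8 events, and PladB PSI 0 SE and 0 retained-intron events. DESeq2 was not run.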
